A study of Homo sapiens with 12 samples.

Results

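The genes described here are EDN1, EDN2, EDNRB, IQCN, SSTR3 and OSR2, 6 of the 58735 genes in the count table of tumor-associated macrophages (TAMs) cocultured with pancreatic cancer cells. EDN2, IQCN and SSTR3 were chosen by their measured values, as the 3 genes with the largest rise, and OSR2 as the gene with the largest fall, when TAMs given an anti-VEGFA antibody were compared with TAMs of the same coculture without it. EDN1, which encodes the sister ligand of EDN2, and EDNRB, which encodes one of the endothelin receptors, were added as relatives of EDN2. Of the 6 genes, 5 passed the filter on low counts and EDNRB did not. EDN2 passed it only through the anti-VEGFA libraries: the filter needs 3 libraries at about 10 counts, and outside that group 2 reached them, so its comparisons with anti-VEGFA are values with no test.

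The TAMs were THP-1 cells, a human monocytic leukaemia line, turned into macrophages with the phorbol ester PMA and grown below a Transwell membrane that carried AsPC-1 pancreatic cancer cells. In the control group (labelled NC) the AsPC-1 cells carried an empty vector, and in the OE-MMP28 group they overexpressed the matrix metalloproteinase MMP28. In the anti-IL-8 and anti-VEGFA groups, the OE-MMP28 coculture also received an antibody that neutralizes the cytokine IL-8 or the growth factor VEGFA. Each group had 3 libraries, none of the sequenced groups is named for an isotype control antibody, and the labels do not say whether the 3 were separate cultures, so the p-values measure only the spread between these libraries. All 12 came from 1 cell line.

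Endothelins are short peptides cut from larger precursors by endothelin-converting enzymes. They act through the receptors EDNRA and EDNRB, which couple to Gq and calcium release, and are best known as constrictors of blood vessels, although macrophages also make them. SSTR3 is a somatostatin receptor that couples to Gi, lowers cyclic AMP and is found on primary cilia of neurons. IQCN is a protein with IQ motifs, short binding stretches, and is known from sperm development. OSR2 is a zinc finger transcription factor of the odd-skipped family, known from palate, tooth and limb development.

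EDN2 and EDN1 have the same layout, with the mature peptide of 21 codons inside exon 2 of 5. The coding bases of the mature peptides are shown because both transcripts were counted in the same libraries and are close in sequence. Both come from GENCODE 29 (GRCh38): EDN2 at chr1:41484061-41484123 on the minus strand and EDN1 at chr6:12292433-12292495 on the plus strand, with the bases that differ in capitals.
EDN2: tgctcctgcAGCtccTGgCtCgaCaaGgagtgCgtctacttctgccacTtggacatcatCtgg
EDN1: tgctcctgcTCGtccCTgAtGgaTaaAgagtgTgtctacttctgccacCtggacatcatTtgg
The stretches differ at 12 of 63 bases and 8 of 21 codons, and 2 of those codons encode another residue. The whole genes lie apart, EDN2 at chr1:41478775-41484673 and EDN1 at chr6:12290363-12297194.

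The bases upstream of the start sites of EDN2, IQCN and SSTR3 are shown because these genes had their highest levels in the same libraries. They come from RefSeq (GRCh38.p14) and lie on the minus strand at chr1:41484684-41484933 (EDN2), chr19:18274510-18274702 (IQCN) and chr22:37212478-37212727 (SSTR3). The stretch of IQCN ends before the GENCODE start, which lies 57 bases upstream of the RefSeq start. Capitals mark the only match found there to 4 motifs searched on both strands.
EDN2 upstream: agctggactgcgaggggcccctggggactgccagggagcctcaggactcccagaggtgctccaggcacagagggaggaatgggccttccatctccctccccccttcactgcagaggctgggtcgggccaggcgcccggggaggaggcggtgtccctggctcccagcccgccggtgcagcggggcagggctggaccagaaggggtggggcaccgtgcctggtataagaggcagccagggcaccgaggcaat
IQCN upstream: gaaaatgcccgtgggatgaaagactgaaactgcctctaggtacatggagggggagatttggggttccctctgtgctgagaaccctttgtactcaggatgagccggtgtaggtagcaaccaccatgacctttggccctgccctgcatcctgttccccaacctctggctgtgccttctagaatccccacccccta
SSTR3 upstream: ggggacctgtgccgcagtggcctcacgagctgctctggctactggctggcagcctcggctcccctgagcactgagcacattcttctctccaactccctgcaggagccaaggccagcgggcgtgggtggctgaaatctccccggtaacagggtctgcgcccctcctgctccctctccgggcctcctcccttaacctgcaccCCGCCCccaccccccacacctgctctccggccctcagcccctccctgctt
The motifs were the AP-1 site TGANTCA, the cyclic AMP response element TGACGTCA, the hypoxia response core ACGTG and the GC box GGGCGG, searched in the 250 bases before each RefSeq start. Of 35116 RefSeq promoters, 6.57% held the first, 1.65% the second, 18.5% the third and 42.6% the last. SSTR3 had 2 RefSeq starts listed and EDN1 had 3, and only the start nearest to the GENCODE start was searched. The promoter of EDN2 held none of the 4, and that of SSTR3 held 1 GC box on the opposite strand, 50 bases upstream. The promoter of IQCN held 1 AP-1 match, at 25 bases upstream of the RefSeq start and inside the first exon of the longer GENCODE transcript. It is shown in capitals in the 29 bases at chr19:18274460-18274488 on the minus strand.
IQCN AP-1 match: gaacttggcttTGAGTCAcaaagctgctg
The promoter of EDN1 held 1 hypoxia response core. A match describes letters in the reference genome and was not read as a site in use.

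Library totals were 15852346 to 18701195 counts, and 3 counts correspond to 0.160 to 0.189 CPM (counts scaled to library size by TMM). Mitochondrial genes took 6.92% to 17.8% of the counts, with the lowest and the highest share both in the anti-VEGFA group, in replicates 1 and 2. Of 10 macrophage markers, 9 had over 10 counts in each of the 12 libraries, but CD68, a defining macrophage marker, had at most 5 counts in any library. The 10 markers summed to 2422 to 2712 CPM in control, 2622 to 3990 in OE-MMP28, 3466 to 4139 under anti-IL-8 and 3360 to 3688 under anti-VEGFA. Both antibody groups thus lay above control and overlapped OE-MMP28. CD14 alone had group means of 752 CPM in control, 1310 in OE-MMP28, 1579 under anti-IL-8 and 1386 under anti-VEGFA. Of the 9 markers tested, 5 were higher in anti-VEGFA against control and 1 was called, against 11.0% of all genes. In anti-IL-8 against control 8 were higher and 4 were called, against 20.7% of all genes. The 12 epithelial markers of the cancer cells summed to 7.48 to 15.2 CPM, with EPCAM at 0 counts in all 12 libraries. The anti-VEGFA libraries (12.75 to 13.84 CPM) lay within the range of control (11.80 to 15.22) and just above that of OE-MMP28 (7.48 to 12.73). In anti-VEGFA against OE-MMP28 all 4 epithelial markers tested were higher and 0 were called, with a median log2 fold change of 0.47 against -0.0015 over all genes. The anti-IL-8 libraries were alike, at 12.63 to 14.53 CPM. In anti-IL-8 against OE-MMP28 3 of the 4 were higher and 0 were called, with a median of 0.48. The median was -0.46 in OE-MMP28 against control and -0.0049 in anti-VEGFA against anti-IL-8. The part of these epithelial levels in the values of the genes described was not tested. MMP28 had 0 counts in all 12 libraries. The paper places the overexpression of MMP28 in the AsPC-1 cells, so these counts do not check the groups of the libraries. OE-MMP28 replicate 2 stood apart in base composition: at the GC content of EDN2 (59.5%), a curve over all genes put it 0.44 below the gene's mean on the log2 scale, whereas the other 11 libraries lay between -0.12 and 0.21.

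EDN2 was nearly absent except in the anti-VEGFA group. It had 0, 1 and 5 counts in the control libraries, 4, 3 and 12 in OE-MMP28, and 7, 2 and 10 under anti-IL-8. With anti-VEGFA it had 107, 42 and 49 counts. All 3 anti-VEGFA libraries lay above all 9 others, which overlapped each other. The mean level was 3.88 ± 2.15 CPM with anti-VEGFA, 0.381 ± 0.319 in OE-MMP28, 0.406 ± 0.268 under anti-IL-8 and 0.118 ± 0.157 in control (SD, n = 3 each). In a bulk sample, RNA from more cells of a kind and more RNA per cell cannot be told apart.

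EDN1 went the other way. It had 238, 201 and 227 counts in control and 220, 225 and 185 in OE-MMP28. It had 116, 174 and 88 counts with anti-IL-8 and 134, 114 and 150 with anti-VEGFA. Every library of the 2 antibody groups was below every library of the other 2 groups. The levels were 13.0 ± 1.27 CPM in control and 12.3 ± 0.818 in OE-MMP28, then 7.83 ± 2.33 under anti-IL-8 and 7.73 ± 0.429 under anti-VEGFA (SD, n = 3 each), so the order held 2 steps, and the neighbours within each step overlapped.

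Levels of different genes were compared on the length-scaled FPKM values of the authors. On that scale EDN2 made up 28.8% to 49.8% of the summed EDN1 and EDN2 level in the anti-VEGFA libraries, with a mean of 36.7% ± 11.4 (SD, n = 3). The share was at most 2.66% in control, 7.45% in OE-MMP28 and 12.4% under anti-IL-8, so the anti-VEGFA libraries did not overlap the others. EDN2 was chosen for its high level in the anti-VEGFA libraries, so this gap follows in part from the choice. The sum itself was 6.09 ± 1.37 FPKM with anti-VEGFA, 6.40 ± 0.625 in control, 6.19 ± 0.266 for OE-MMP28 and 4.07 ± 0.932 with anti-IL-8. The summed endothelin mRNA of the anti-VEGFA libraries, 5.15 to 7.66 FPKM, overlapped that of control, 5.68 to 6.85 FPKM, and of OE-MMP28, 6.03 to 6.50 FPKM.

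**Figure D1:**
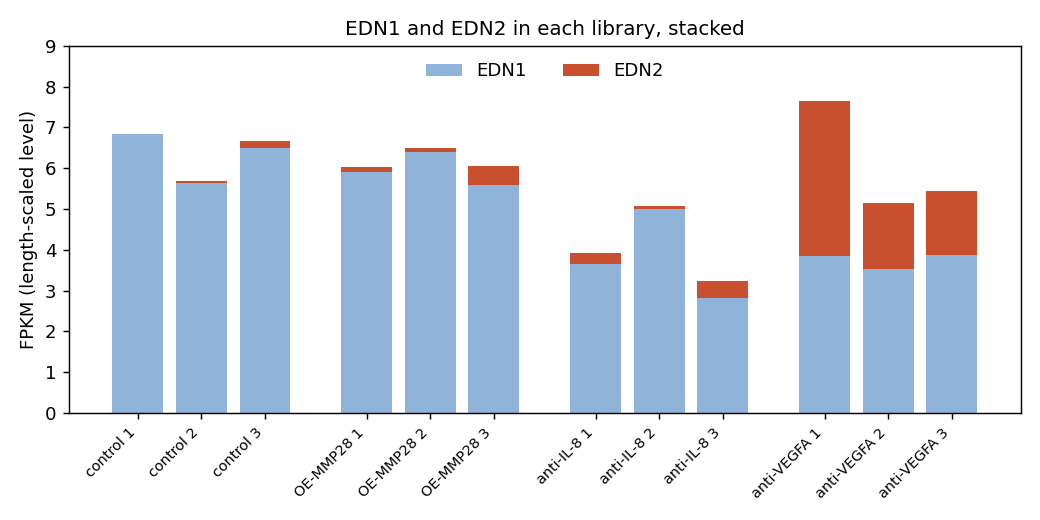
Length-scaled level (FPKM, vertical axis) of EDN1 and EDN2 stacked for each of the 12 libraries. EDN2 forms 28.8% to 49.8% of the bar in the anti-VEGFA libraries and at most 12.4% in the others, and anti-VEGFA replicate 1 has the tallest EDN2 part.

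EDNRB was at the limit of detection. It had 3, 4 and 3 counts in control, 3, 5 and 3 in OE-MMP28, 2, 0 and 1 under anti-IL-8 and 6, 9 and 4 with anti-VEGFA. Each anti-VEGFA library had more counts than each anti-IL-8 library, but the anti-VEGFA libraries overlapped those of OE-MMP28 in CPM. It was not tested, and no fold is given.

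Among EDN2, IQCN and SSTR3, IQCN had the largest number of counts. It had 76, 74 and 134 counts in control, 128, 114 and 105 in OE-MMP28 and 162, 132 and 105 under anti-IL-8. With anti-VEGFA it had 819, 386 and 424 counts. The anti-VEGFA libraries were all above the others, and the other 3 groups overlapped. The levels were 5.56 ± 2.06, 6.75 ± 0.252, 8.36 ± 1.86 and 31.9 ± 14.5 CPM in that order of groups (SD, n = 3 each).

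SSTR3 had a graded order of levels, with the anti-IL-8 group between OE-MMP28 and anti-VEGFA. It had 4, 11 and 15 counts in control and 22, 14 and 28 in OE-MMP28. It had 42, 36 and 35 counts with anti-IL-8 and 103, 50 and 81 with anti-VEGFA. Control and OE-MMP28 overlapped in CPM, whereas OE-MMP28, anti-IL-8 and anti-VEGFA did not overlap each other. The levels were 0.587 ± 0.329, 1.26 ± 0.467, 2.37 ± 0.297 and 4.54 ± 1.48 CPM in the same order (SD, n = 3 each).

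OSR2 was highest in control. It had 200, 241 and 210 counts in control and 143, 119 and 94 in OE-MMP28. It had 105, 65 and 43 counts with anti-IL-8 and 43, 57 and 43 with anti-VEGFA. The control libraries lay above all 9 others, the anti-VEGFA libraries lay below those of OE-MMP28, and the anti-IL-8 libraries overlapped both. The levels were 12.7 ± 1.09, 6.90 ± 0.998, 4.47 ± 2.05 and 2.82 ± 0.702 CPM (SD, n = 3 each).

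Among the anti-VEGFA libraries, replicate 1 had the highest EDN2 (6.36 CPM against 2.67 and 2.61), IQCN (48.7 against 24.5 and 22.6) and SSTR3 (6.12 against 3.17 and 4.32). The same library had the lowest mitochondrial share (6.92%) and the most genes detected (25769). That the anti-VEGFA libraries other than replicate 1 also lay above the other groups follows from the ranges given above and is no further check. The part of these library properties in the levels was not tested.

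In the comparison that chose the genes, anti-VEGFA against OE-MMP28, the values are a description without a test. The fitted log2 fold change (SE from the same fit) was 3.35 (0.60) for EDN2, 2.24 (0.28) for IQCN, 1.85 (0.35) for SSTR3 and -1.30 (0.27) for OSR2. It was -0.66 (0.18) for EDN1. In this comparison 55 of 16046 genes tested passed an adjusted p of 0.05 (0.343%), and the choice required all 4 leading genes to be among them, so nothing is read from that count. Just outside the choice were B3GNT7 (1.56) and HSPA2 (1.51), the next rises of 36 eligible genes, and FOSB (-1.30) and FOS (-1.05), the only other eligible genes that were lower. The value of EDN2 was 3.02 with a prior count of 2 in place of edgeR's smaller default, and the OE-MMP28 libraries held 19 counts in all.

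Anti-VEGFA was next compared with the empty-vector coculture, which shares the anti-VEGFA libraries with the comparison that chose the genes and is not independent of it. By the quasi-likelihood test of edgeR, adjusted over all genes after Benjamini-Hochberg, 11.0% of all genes tested passed. EDN1, which was not chosen by its values, was among them. IQCN, SSTR3 and OSR2 were chosen on the same anti-VEGFA libraries, so their values are given as a description. IQCN was 5.73-fold higher (log2 fold change 2.52, SE 0.28). SSTR3 was 7.66-fold higher (2.94, SE 0.39). The fitted value of EDN2 was 4.96 on the log2 scale (SE 0.72), or 4.08 with a prior count of 2, and control held 6 counts of it in all. OSR2 was 4.52-fold lower (-2.18, SE 0.26). EDN1 was 1.68-fold lower (-0.75, SE 0.18, adjusted p = 0.015). The call for EDN1 was lost without control replicate 1 (adjusted p = 0.064) or control replicate 3 (adjusted p = 0.050), and its adjusted p ranged from 0.0027 to 0.064 over all settings.

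Anti-IL-8 against control uses none of the libraries that chose the genes. Here 3 of the 5 genes tested passed, SSTR3 higher and OSR2 and EDN1 lower, against 20.7% of all genes tested. SSTR3 was 4.00-fold higher (log2 fold change 2.00, SE 0.41, adjusted p = 0.0036 by edgeR after Benjamini-Hochberg adjustment). OSR2 was 2.85-fold lower (-1.51, SE 0.25, adjusted p = 7.0e-04) and EDN1 was 1.66-fold lower (-0.73, SE 0.18, adjusted p = 0.012). SSTR3 and OSR2 passed in every setting in which they were fitted, and SSTR3 was not fitted with the filter of 10 counts in every library. EDN1 no longer passed without anti-IL-8 replicate 1 (adjusted p = 0.062) or 3 (adjusted p = 0.079), within a range of 0.0017 to 0.079 over all settings. EDN2 (1.71, SE 0.93, adjusted p = 0.20) and IQCN (0.59, SE 0.29, adjusted p = 0.15) did not pass, although IQCN passed in a fit of the 2 groups alone (adjusted p = 0.029) and with no filter (adjusted p = 0.035), within a range of 0.029 to 0.47.

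The OE-MMP28 and control comparison, which shares the OE-MMP28 libraries with the choice, gave 0 calls among the 5 genes by edgeR's quasi-likelihood test, against 3.16% of all genes tested. EDN2, IQCN, SSTR3 and OSR2 were chosen partly on those libraries, so their values and p-values here are a description. At an unadjusted p under 0.05, 2 of the 5 passed, SSTR3 and OSR2, against 2332 of the 16046 genes tested. OSR2 was 1.84-fold lower without overlap of the libraries (-0.88, SE 0.24, adjusted p = 0.054), just past the threshold. It passed with DESeq2 (adjusted p = 0.017) and limma voom (adjusted p = 0.028), and its adjusted p ranged from 0.0021 to 0.23 over all settings. SSTR3 (1.09, SE 0.43, adjusted p = 0.23), EDN2 (1.61, SE 0.93, adjusted p = 0.47), IQCN (0.28, SE 0.29, adjusted p = 0.73) and EDN1 (-0.09, SE 0.18, adjusted p = 0.89) did not pass in any setting in which they were fitted.

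Anti-IL-8 against OE-MMP28 also shares the OE-MMP28 libraries with the choice. The values and p-values of EDN2, IQCN, SSTR3 and OSR2 are again a description. The comparison gave 0 calls among the 5 genes by edgeR's quasi-likelihood test. At an unadjusted p under 0.05 there were 3 of the 5, EDN1, SSTR3 and OSR2. DESeq2 called 1 (EDN1) and limma voom called 0. Of all genes tested 0% passed, with 4700 at an unadjusted p under 0.05, 1574 calls by DESeq2 and 0 by limma voom. Without OE-MMP28 replicate 3 the number called over all genes was 4125. EDN1 was 1.56-fold lower without overlap (-0.64, SE 0.18, adjusted p = 0.063) and passed with DESeq2 (adjusted p = 0.030) and without OE-MMP28 replicate 3 (adjusted p = 0.022), within a range of 0.022 to 0.43. SSTR3 was 1.88-fold higher without overlap (0.91, SE 0.37, adjusted p = 0.11) and passed without OE-MMP28 replicate 3 (adjusted p = 0.034), within a range of 0.034 to 0.62. OSR2 (-0.63, SE 0.26, adjusted p = 0.12), IQCN (0.31, SE 0.28, adjusted p = 0.49) and EDN2 (0.10, SE 0.76, adjusted p = 0.94) did not pass.

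The 2 antibodies were compared directly, again with the anti-VEGFA libraries that entered the choice. Of all genes tested 0.199% passed, and IQCN was among them, but the choice was made on the same anti-VEGFA libraries and nothing is read from that. As a description, IQCN was 3.82-fold higher with anti-VEGFA than with anti-IL-8 (log2 fold change 1.93, SE 0.27). Its value ranged from 1.49 to 2.11 when 1 library was left out. The fitted value of EDN2 was 3.25 (SE 0.60), with a range of 2.70 to 3.75 when 1 library was left out, and carries no test. By edgeR after Benjamini-Hochberg adjustment, SSTR3 (0.94, SE 0.33, adjusted p = 0.21) and OSR2 (-0.67, SE 0.27, adjusted p = 0.27) did not pass. Both were chosen on the same anti-VEGFA libraries, so nothing is read from that either. As a description, the value plus and minus 2 SE spanned 0.28 to 1.59 for SSTR3 and -1.22 to -0.12 for OSR2. EDN1, not chosen by its values, did not pass (-0.02, SE 0.19, adjusted p = 0.97 by the same test). Its value plus and minus 2 SE spanned -0.40 to 0.36, so the data do not show that the antibodies acted alike on EDN1.

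**Figure D2:**
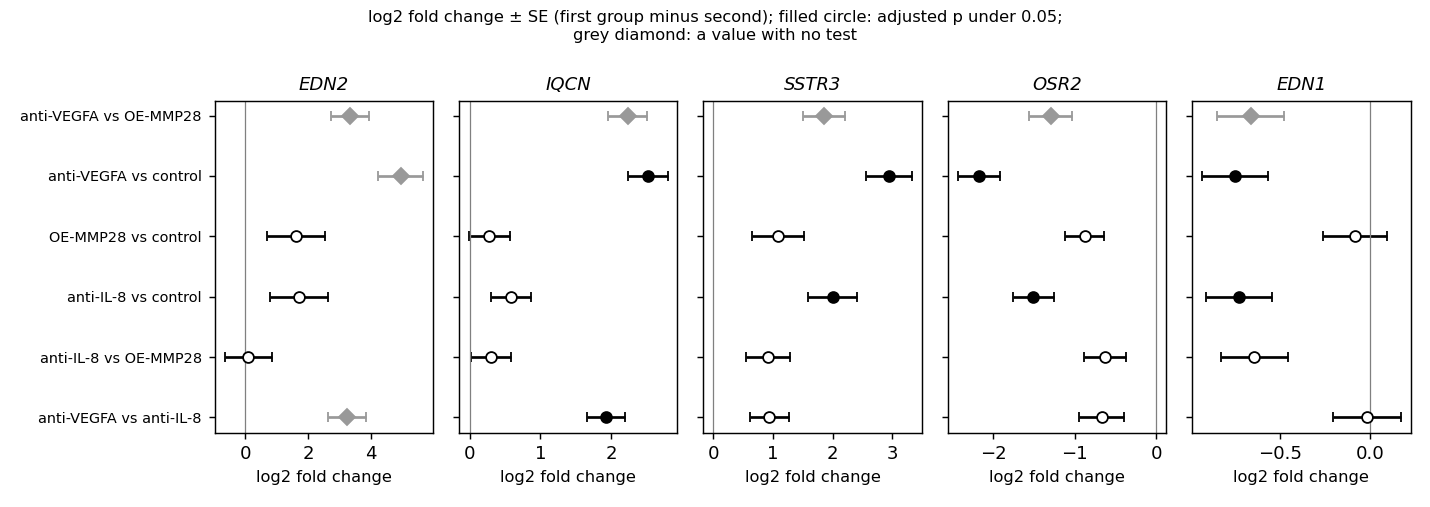
Fitted log2 fold change (horizontal axes, a separate scale per panel) with its SE for the 5 genes tested in each of 6 comparisons, as the first group minus the second. Filled circles passed an adjusted p of 0.05, open circles did not, and grey diamonds are values with no test (the comparison that chose the genes, and EDN2 wherever anti-VEGFA is one of the groups). Circles of EDN2, IQCN, SSTR3 and OSR2 in comparisons with anti-VEGFA or OE-MMP28 rest on libraries that entered the choice. They are read as a description. In anti-IL-8 against control, SSTR3, OSR2 and EDN1 have filled circles and EDN2 and IQCN open ones.

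In the rest of the endothelin system, the genes called were all lower. Of its 9 genes, 6 were tested, since the ligand EDN3 had 0 counts in all libraries and the converting enzyme ECE2 had 1 count in all. In anti-VEGFA against control EDN1 and the receptor EDNRA were called lower, beside the untested EDN2, against 11.0% of all genes called in either direction. In anti-IL-8 against control 3 of the 6 were called, against 20.7% of all genes, all lower: EDN1, EDNRA and the peptidase MME, which degrades endothelins. The median log2 fold change of the 6 was -0.23 and -0.54 in these comparisons, against 0.0014 and -0.020 over all genes tested. Between OE-MMP28 and control, EDNRA fell by 0.91 on the log2 scale (SE 0.23, adjusted p = 0.038 by edgeR's quasi-likelihood test) and did not pass between the antibody groups and OE-MMP28. It had 69 to 106 counts per library in control, 38 to 54 in OE-MMP28, 36 to 39 under anti-IL-8 and 34 to 48 under anti-VEGFA. On the FPKM scale EDNRA exceeded EDNRB in every group, at 0.538 ± 0.111 against 0.0670 ± 0.0321 with anti-VEGFA (SD, n = 3). ECE1, which cuts the precursor into the active peptide, was at 40.7 to 50.3 CPM in the group means and passed in 0 of the 6 comparisons by edgeR, DESeq2 or limma voom, with 0 at an unadjusted p under 0.05.

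Downstream of the endothelin receptors, 7 of 9 genes of Gq signalling and calcium release were tested. In anti-VEGFA against control 1 was higher, the phospholipase PLCB3 (log2 fold change 0.48, SE 0.15, adjusted p = 0.043), and 1 was lower, the IP3 receptor ITPR1 (-0.80, SE 0.18, adjusted p = 0.011), both by edgeR's quasi-likelihood test, so 2 of 7 against 11.0% of all genes. In anti-IL-8 against control 2 of the 7 were called, against 20.7% of all genes, both lower: ITPR1 (2.01-fold) and ITPR2 (1.40-fold). In anti-VEGFA against OE-MMP28 and against anti-IL-8, 0 of the 7 were called by edgeR, DESeq2 or limma voom. At an unadjusted p under 0.05 there were 2 and 0 of the 7, against 3019 and 2409 of the 16046 genes tested. The median log2 fold change of the 7 was 0.09 and 0.11 there, against -0.0015 and 0.018 over all genes.

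SSTR3 was the scarcer of the 2 somatostatin receptors measured. Of the 7 genes of the system only SSTR2 and SSTR3 were tested, because the peptides SST and CORT had at most 2 and 13 counts and SSTR1, SSTR4 and SSTR5 had at most 1. SSTR2 was at 15.1 ± 0.830 FPKM in control and 10.5 ± 0.195 in OE-MMP28, and at 9.17 ± 0.946 under anti-IL-8 and 13.7 ± 1.44 under anti-VEGFA (SD, n = 3 each). It was lower in OE-MMP28 than in control (-0.52, SE 0.12, adjusted p = 0.016) and in anti-IL-8 against control (-0.73, SE 0.12, adjusted p = 5.5e-04), and was higher with anti-VEGFA than with anti-IL-8 (0.59, SE 0.12, adjusted p = 0.047), by edgeR's quasi-likelihood test. In anti-VEGFA against control it did not pass (-0.14, SE 0.12, adjusted p = 0.47), whereas SSTR3 was 7.66-fold higher there. The share of SSTR3 in the summed SSTR2 and SSTR3 level on the FPKM scale was 0.855% ± 0.509 in control and 2.54% ± 0.933 in OE-MMP28, and 5.41% ± 0.723 under anti-IL-8 and 6.88% ± 2.78 under anti-VEGFA (SD, n = 3 each). The shares of the 2 antibody groups overlapped, from 4.74% to 6.17% and from 4.54% to 9.94%. Of 13 genes of Gi proteins and adenylyl cyclases, 10 were tested, and those called were GNAI1 (-0.54, adjusted p = 0.020) and GNAI3 (-0.43, adjusted p = 0.020), both in anti-IL-8 against control by edgeR, 2 of 10 against 20.7% of all genes.

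**Figure D3:**
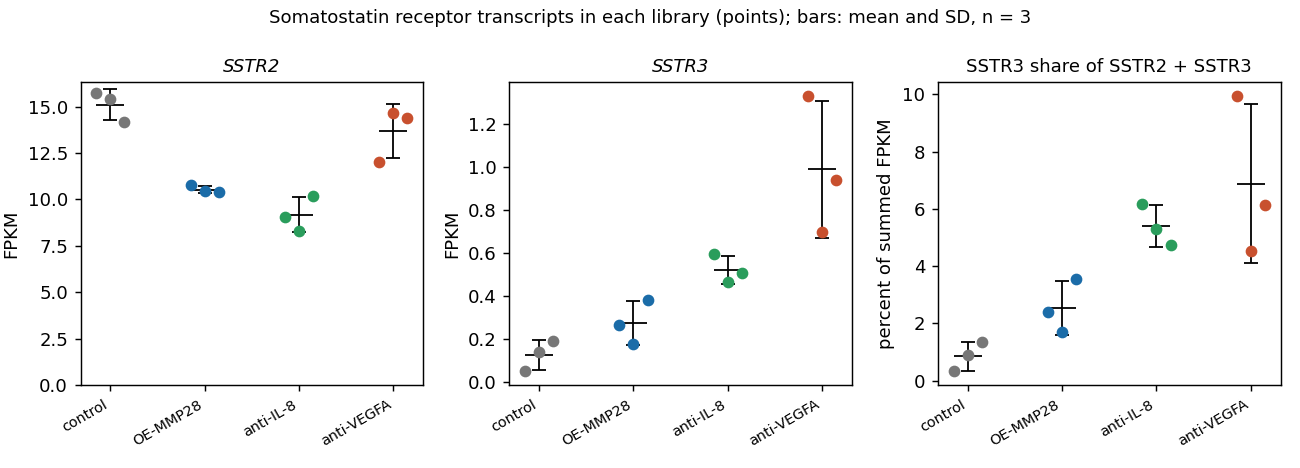
SSTR2 and SSTR3 in FPKM and the share of SSTR3 in their sum (vertical axes) for each library by group, with the mean and SD of 3 libraries. The mean of SSTR2 was lowest with anti-IL-8 (9.17 FPKM) and 13.7 FPKM with anti-VEGFA, while SSTR3 and its share were lowest in control and reached 6.88% on average with anti-VEGFA.

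Of 18 genes with IQ motifs, 12 were tested. In anti-VEGFA against control 2 were called, IQCN and IQCE (log2 fold change 0.58, SE 0.15, adjusted p = 0.022 by edgeR's quasi-likelihood test), both higher. These are 2 of 12, one of them the chosen gene, against 11.0% of all genes. In anti-VEGFA against anti-IL-8 the chosen IQCN was the 1 called, against 0.199% of all genes. The median of the 12 was -0.04 and 0.05 in these comparisons. IQCE, a ciliary protein, was also higher in anti-IL-8 against control (0.67, SE 0.15, adjusted p = 0.0071), where the scaffold proteins IQGAP1 and IQGAP2 were lower, 3 of 12 called against 20.7% of all genes.

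OSR2 had no measured relative to compare. OSR1, the other odd-skipped gene, had at most 2 counts in a library, PAX9 had at most 1, and of the 5 genes of odd-skipped factors and tooth or palate regulators MSX1 and BMP4 were the others tested. Neither was called in any of the 6 comparisons by edgeR, DESeq2 or limma voom, or had an unadjusted p under 0.05, and with anti-VEGFA MSX1 was at 4.45 ± 0.934 CPM against 3.91 ± 0.660 in control (SD, n = 3).

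The 8 AP-1 factors, all tested, were examined because the promoter of IQCN holds an AP-1 match and FOS and FOSB followed OSR2 in the ranking of falls. That ranking used the same anti-VEGFA libraries, so in anti-VEGFA against control the values of FOSB (-2.03, SE 0.26) and FOS (-1.34, SE 0.17) are given as a description. Of the others, JUND was higher there (log2 fold change 0.58, SE 0.18, adjusted p = 0.046) and ATF3 lower (-0.49, SE 0.11, adjusted p = 0.010) by edgeR's quasi-likelihood test, against 11.0% of all genes called. In anti-IL-8 against control 3 of the 8 were called, FOSB, FOS and ATF3, all lower, against 20.7% of all genes. In OE-MMP28 against control 1 of the 8 was called, ATF3, also lower, against 3.16% of all genes. Its group means were 668 CPM in control, 470 in OE-MMP28, 508 under anti-IL-8 and 475 under anti-VEGFA. The group means of FOS had the same order as those of OSR2, with 763 ± 78.7 CPM in control and 624 ± 42.4, 471 ± 131 and 302 ± 21.0 CPM in OE-MMP28, anti-IL-8 and anti-VEGFA (SD, n = 3 each).

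The genes were set beside their neighbours on the chromosome. EDN2 lies 21691 bases from HIVEP3 on the same strand, which had -0.19 (SE 0.14) in anti-VEGFA against control, where EDN2 had 4.96. IQCN (chr19:18257097-18274509, minus strand) lies 5250 bases downstream of JUND on the same strand. JUND had 0.58 (SE 0.18) where IQCN had 2.52. SSTR3 (chr22:37204238-37212322, minus strand) lies between C1QTNF6, 4852 bases away, with 0.39 (SE 0.28, adjusted p = 0.39 by edgeR's quasi-likelihood test), and RAC2, 12938 bases away, with -0.11 (SE 0.14, adjusted p = 0.66). OSR2 lies 1575 bases from STK3, on the opposite strand, with -0.26 (SE 0.17, adjusted p = 0.33). Of the 10 nearest tested genes on both sides of the 5 genes tested, 1 was called in anti-VEGFA against control, JUND, against 11.0% of all genes tested. EDNRB overlaps an antisense gene, RNF219-AS1, which had at most 2 counts in a library. The strand setting of the counting is not given in the sources used here.

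EDN2, IQCN and SSTR3 shared a high GC content. The longest coding transcript had 59.5% GC in EDN2, 62.1% in IQCN and 60.7% in SSTR3, above 82.5%, 89.8% and 86.1% of the coding genes tested, whose median was 48.9%. OSR2, which was lower with anti-VEGFA, had 57.9% (above 77.3%), while EDN1 had 45.1% and EDNRB 39.3%. The offsets given next took the longest transcript of any type, which for IQCN had 58.9% GC. Offsets for GC content were an alternative added after the values were seen. With them the log2 fold change in anti-VEGFA against control was 4.73 for EDN2, 2.30 for IQCN, 2.68 for SSTR3 and -2.35 for OSR2, as a description. It was -0.63 for EDN1, which passed. In anti-VEGFA against OE-MMP28, as a description, the values were 3.07, 1.94, 1.54, -1.56 and -0.55.

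Across the 12 libraries, which share the 4 groups, EDN2, IQCN and SSTR3 varied together in log2 CPM (r = 0.93 for EDN2 and IQCN, 0.88 for EDN2 and SSTR3 and 0.84 for IQCN and SSTR3). OSR2 went against them (r from -0.87 to -0.73) and with EDN1 (r = 0.77). Among all genes tested, the pattern most like that of both EDN2 and IQCN was that of NXF1, which exports mRNA from the nucleus (r = 0.95 and 0.96), at 119 CPM in control and 179 CPM with anti-VEGFA. Next came CILP2 and DPH1 for EDN2, and POLR2J3 and CELSR3 for IQCN. SSTR3 was most like NUDT17, POLE and ATP2A1 (r = 0.97, 0.97 and 0.95). OSR2 was most like PNMA8C, FOS and STAMBP (r = 0.98, 0.96 and 0.94), and PNMA8C went from 1.13 CPM in control to 0.0410 CPM with anti-VEGFA. EDN2, IQCN, SSTR3 and OSR2 were chosen by their levels in the anti-VEGFA and OE-MMP28 libraries. The signs of r among them therefore follow in part from the choice. These correlations describe the libraries, whose points share group, depth scaling and base composition, and carry no test.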

How the data were processed

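RNA from 12 TAM libraries in 4 groups of 3 was analysed, grouped by the sample labels alone. The authors aligned reads with HISAT2 2.0.5 and counted them per gene with featureCounts 1.5.0-p3 (versions from the submitters' processing notes) and deposited raw counts for 58735 genes. They also deposited FPKM values, scaled for gene length and library size, which were used here only to compare genes. The deposited table further holds the authors' group means, fold changes and p-values of their own comparisons, which were not used. Of its genes, 58631 match GENCODE 29 (GRCh38) in position.

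Counts were analysed in R 4.3.3 with edgeR 4.0.16: filterByExpr kept 16046 genes, TMM scaled the libraries, and 1 quasi-likelihood fit of 4 groups gave 6 comparisons, with edgeR's default prior count and Benjamini-Hochberg adjustment over all genes tested at 0.05. The study's methods name limma, but the deposited unit is counts. Depth was 15852346 to 18701195 counts per library, so scarce genes such as EDN2 and EDNRB are limited by counting error. CPM uses TMM-scaled totals.

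The genes described, the lists and the naming rule were chosen with earlier results of these data known. The rule names the 6 genes, the members of 8 gene lists (1 of which is not reported here), overlapping and nearest tested genes, the 3 genes of highest correlation in log2 CPM (prior count of 2), and the next genes in the ranking. That ranking took protein-coding genes with an adjusted p under 0.05, 50 or more counts on average in the group with the higher level, and no overlap between libraries. Alternatives were DESeq2 1.42.0, limma 3.58.1 voom, library totals, no filter, a filter of 10 counts in every library, fits of 2 groups, a replicate block and each library left out. A prior count of 2 and offsets for GC content (a curve per library) were added after values were seen. The fit was tested on simulated data. Motifs were searched in RefSeq promoters. Figures used Python 3.11.15, pandas 2.3.3 and matplotlib 3.10.9.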

Additional observations from a re-analysis of the deposited data

How the results depend on the processing

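In anti-VEGFA against control, IQCN, SSTR3 and OSR2 kept their direction under every alternative in which they were fitted and with every library left out. These values are a description, since the genes were chosen on the same anti-VEGFA libraries. In anti-IL-8 against control, SSTR3 and OSR2 kept both their direction and their call in the same way. EDN2, a value with no test, kept its direction in anti-VEGFA against control. EDN2 and SSTR3 were not fitted with at least 10 counts in every library, nor EDN2 in fits of 2 groups without anti-VEGFA. Values that changed sign were not called in any setting: EDN2 in anti-IL-8 against OE-MMP28 (-0.20 with offsets for GC content, and -0.40 to 1.00 over the libraries left out) and IQCN in the same comparison (-0.012 with those offsets). EDN1 in anti-VEGFA against anti-IL-8 was 0.017 with library totals, 0.016 with limma voom and -0.21 to 0.23 over the libraries left out. The causes were not tested.

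The number of genes called in anti-VEGFA against OE-MMP28 was 55. It was 382 with DESeq2, 400 with no filter, 1 in a fit of the 2 groups alone, 17 with offsets for GC content, and 8 to 1402 with 1 library left out. In anti-VEGFA against anti-IL-8 it was 32, then 245, 277, 17 and 88 in the same order, 57 with at least 10 counts in every library, and 3 to 112 with 1 library left out. In anti-IL-8 against OE-MMP28 it was 0, then 1574 with DESeq2, 1438 with no filter, and 0 to 4125 with 1 library left out. In anti-IL-8 against control it was 3317, then 6039 in the fit of 2 groups, 2035 with the GC offsets, and 1312 to 4309. In OE-MMP28 against control it was 507, then 781 with the GC offsets, and 295 to 641, and in anti-VEGFA against control it was 1760, with 662 to 2582.

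A replicate block gave 795 calls in anti-IL-8 against OE-MMP28 and an adjusted p of 0.043 for OSR2 in OE-MMP28 against control by edgeR's quasi-likelihood test. Of 18 pairs of libraries with the same number, 4 correlated above 0.1 (r from -0.16 to 0.24), and 4 of 12 libraries correlated best with their own number, so the numbers were not taken as pairs. Depth limits EDN2 outside the anti-VEGFA group and EDNRB throughout.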
